A study of Mus musculus with 28 samples.

Results

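The genes described are 10 members of the cytochrome P450 2 family outside its 2b and 2c branches: Cyp2a4, Cyp2a5, Cyp2a12 and Cyp2a22, Cyp2d9, Cyp2d10, Cyp2d22 and Cyp2d26, Cyp2f2 and Cyp2j5. They were chosen by name, with earlier results of these data known, and every probe whose RefSeq accession belongs to one of them was taken. This gave 10 probes of 55681, for 9 of the 10 genes. Cyp2a4 had 2 probes, called probe 1 (A_55_P2007326) and probe 2 (A_52_P9703), and no probe carried an accession of Cyp2a5. Livers of male B6C3F1 mice, labelled 42 days old, had been kept as formalin-fixed, paraffin-embedded blocks for 16 years. For about 4 weeks, 3 mice had drunk water with 0.05% phenobarbital, and 3 control mice had water alone. The RNA of these 6 mice was copied into cDNA by whole transcriptome amplification, given its label chemically and hybridized in 4 sets of Agilent arrays. The one-colour format had 6 arrays with the 1X amount of cDNA and 6 with 1.5X, and the two-colour format 8 with each amount. Only 1 sex, 1 dose and 1 exposure time were measured, on RNA from whole liver, so a hybridization signal cannot tell fewer cells of a type apart from less RNA per cell.

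Cytochromes P450 are heme enzymes of the endoplasmic reticulum that oxidize drugs, steroids and fatty acids, with electrons passed to them by the reductase Por. The 2 family is the largest in the mouse and much of it is expressed in hepatocytes, where some members differ between the sexes and others between the periportal and pericentral zones of the lobule. Phenobarbital activates the constitutive androstane receptor (CAR), whose best known P450 targets belong to the 2b, 2c and 3a branches. Cyp2a4 is a steroid hydroxylase with female-biased expression in mouse liver, and Cyp2a5, its close copy, hydroxylates coumarin and nicotine.

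The sequences just upstream of Cyp2a4 and Cyp2a5 are shown because the only change past the test in these genes was at Cyp2a4, and they let the likeness of the pair be seen. They are the 250 bases before each gene's annotated start (RefSeq, GRCm38.p6, plus strand), at chr7:26306942-26307191 for Cyp2a4 and chr7:26835089-26835338 for Cyp2a5, printed in lower case with the bases that differ between the pair in capitals.
Cyp2a4: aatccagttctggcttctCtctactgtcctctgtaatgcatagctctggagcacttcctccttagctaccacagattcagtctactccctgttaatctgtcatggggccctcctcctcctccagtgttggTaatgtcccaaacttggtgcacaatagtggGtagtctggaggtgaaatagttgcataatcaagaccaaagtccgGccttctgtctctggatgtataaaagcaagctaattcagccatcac
Cyp2a5: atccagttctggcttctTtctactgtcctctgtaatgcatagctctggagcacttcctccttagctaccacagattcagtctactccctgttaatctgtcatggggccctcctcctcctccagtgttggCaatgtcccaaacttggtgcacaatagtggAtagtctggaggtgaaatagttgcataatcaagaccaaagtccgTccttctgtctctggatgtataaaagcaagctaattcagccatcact
Aligned without gaps, 245 of 249 bases were identical (98.4%). The same measure was 88.7% for Cyp2a12 and Cyp2a22 and 72.9% for Cyp2d9 and Cyp2d10. The table held upstream sequence for 9 of the 10 genes. A TATA box (TATAAA, either strand) stood in 8 of these 9 and in 12.4% of all 32851 upstream windows of this length. CAAAGTCC, the core of sites for the hepatocyte factor HNF4, was found in Cyp2a4 and Cyp2a5, and in 1.2% of all windows. AGGTCA, the element recognized by many nuclear receptors, was found in Cyp2f2 and Cyp2j5 (14% of all windows). TTCNNNGAA, the type of site bound by STAT5, matched none of the 9 (7.02% of all windows), which says only that these letters are not in the windows searched.

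One-colour values are the log2 processed signal relative to the array's 75th percentile, and two-colour values the log2 normalized intensity, averaged over both dyes of a mouse. Each probe's values are comparable between mice within a set, not with those of another probe or set. A set filled 1 slide, and exposure was compared within slides throughout. Input, slide and scanning session cannot be told apart within a format. In the one-colour sets, signals well above background came from 48.0% ± 3.00 of probes at 1X and 32.9% ± 3.58 at 1.5X (SD, n = 6 arrays each). In the two-colour 1.5X set this share was 39.4% ± 3.37 in Cy3 but 4.71% ± 1.66 in Cy5 (SD, n = 8 arrays each). All 10 hepatocyte markers were well above background on every one-colour array, and their summed level was 731 to 907 in phenobarbital and 748 to 964 in control livers at 1X, in multiples of the 75th percentile. Pancreas markers were present too: their sum was 108 to 587 in phenobarbital and 162 to 606 in control livers at 1X, and 10 of 10 were above background on all arrays of that set. No spot of the 10 probes was flagged as an outlier or saturated on any array. Mice were the replicates (n = 3 per group). Precision is limited by how few mice there were.

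Phenobarbital livers had more Cyp2a4 signal than control livers, by 1.92, 1.76 and 1.56 on the log2 scale at one-colour 1X, one-colour 1.5X and two-colour 1X. In the two-colour 1.5X set it was measurable in Cy3 only, where the difference was 1.29. At one-colour 1X, the processed signal of probe 1 was 2596, 2216 and 2255 in phenobarbital mice 1, 2 and 3, against 732, 784 and 761 in control mice 1, 2 and 3. After scaling, these were log2 values of 2.20, 2.10 and 2.40 in the phenobarbital mice and 0.30, 0.62 and 0.0036 in the control mice. The lowest phenobarbital mouse lay above the highest control mouse by more than the whole range of the control group. Groups without overlap and higher with phenobarbital made up 7.39% of all probes tested at 1X, 8.87% at 1.5X and 8.77% over both inputs. At one-colour 1.5X, the signal was 6476, 3200 and 3287 in the phenobarbital mice, against 1156, 1869 and 1077 in the control mice. The scaled log2 values there were 1.70, 1.32 and 1.61 in the phenobarbital mice and -0.31, 0.23 and -0.56 in the control mice. The groups were again apart, with control mouse 2 the highest control in both sets.

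Averaged over both one-colour inputs, Cyp2a4 probe 1 had 1.89 ± 0.15 in phenobarbital and 0.046 ± 0.36 in control livers (log2, SD, n = 3 mice each). The difference was 1.84 (SE 0.21), a 3.59-fold increase with a 95% confidence interval of 2.56 to 5.02, and it passed the test over all probes (limma, adjusted p = 0.0162). By p it ranked 27 among the 16296 probes tested, and by size 56 among the increases. The difference was 1.92 at 1X (SE 0.23, limma adjusted p = 0.0378) and 1.76 at 1.5X (SE 0.24, limma adjusted p = 0.0530), so that at 1.5X it did not pass. The call over both inputs was lost without control mouse 1 (adjusted p = 0.0862), without phenobarbital mouse 2 (0.0586) or 3 (0.0739), and without a filter on dim probes (0.0651), while the difference stayed between 1.63 and 2.03. The call at 1X was lost without any 1 mouse, without the filter and with unscaled values (adjusted p of up to 0.180).

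**Figure D1:**
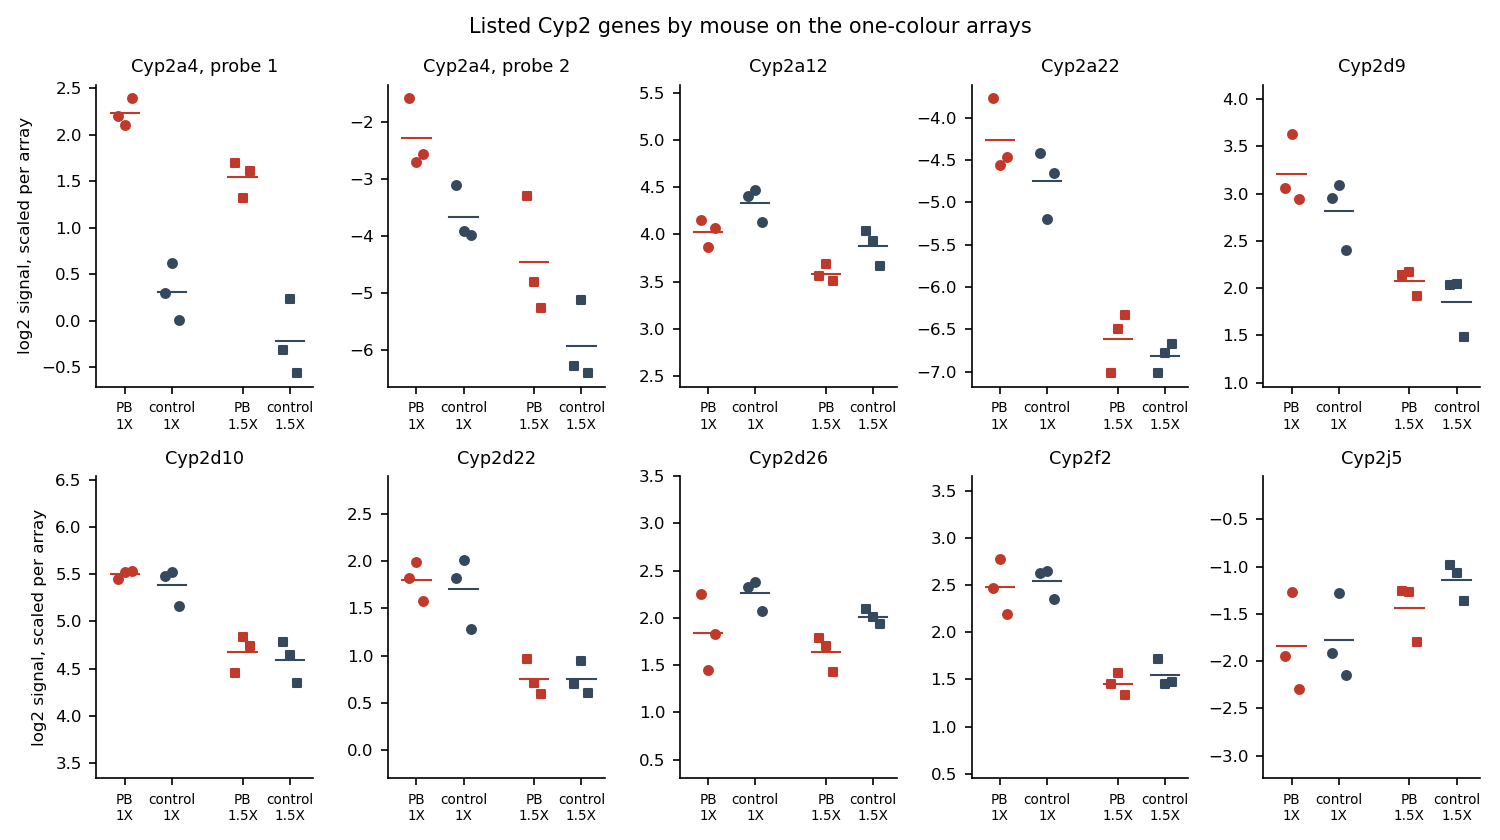
Scaled log2 signal of the 10 probes on the one-colour arrays, 1 panel per probe with axes of its own. Red points are phenobarbital (PB) mice and dark points control mice, circles are 1X and squares 1.5X input, and bars are means of 3 mice. Cyp2a4 probe 1 separates the groups at both inputs, with 2.10 to 2.40 in phenobarbital and 0.0036 to 0.62 in control mice at 1X, while most other panels overlap.

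Probe 2 of Cyp2a4 gave a dimmer and partly unmeasured signal. At one-colour 1X it was well above background in all 6 mice, at log2 values of -1.58, -2.69 and -2.56 in the phenobarbital mice and -3.11, -3.92 and -3.97 in the control mice. The groups did not overlap, with a difference of 1.39 (SE 0.37) that did not pass (limma, adjusted p = 0.298). At one-colour 1.5X it was above background in phenobarbital mouse 1 only and the groups overlapped, so no fold is given. In the two-colour 1X set it was above background in 1 phenobarbital channel and no control channel, and the groups overlapped (6.196 to 6.384 in phenobarbital and 6.120 to 6.263 in control mice), so that no change can be given. In Cy3 of the two-colour 1.5X set it was above background on 4 of 4 phenobarbital and 2 of 4 control arrays, with means of 6.51 in phenobarbital and 6.36 in control livers. The sequences of the probes were not used here, and Cyp2a5 has no probe of its own, so transcripts of Cyp2a4 and Cyp2a5 cannot be told apart and the Cyp2a4 values are uncertain in this respect.

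In the two-colour 1X set, 6 arrays with each mouse labelled once in each dye were used. Probe 1 of Cyp2a4 had log2 intensities of 9.76, 9.79 and 9.82 in phenobarbital mice 1, 2 and 3, against 8.07, 8.38 and 8.24 in control mice 1, 2 and 3. All phenobarbital mice lay above all control mice, and the share of all probes tested with such a separation was 15.4%. Averaged over dyes, the SD was 0.029 in phenobarbital and 0.16 in control mice. Within a dye it was 0.26 in phenobarbital and 0.41 in control mice in Cy3, and 0.29 and 0.26 in Cy5. The difference was 1.56 (SE 0.09), or 2.95-fold with a 95% confidence interval of 2.55 to 3.41, and passed (limma, adjusted p = 7.17e-05). Each array held a phenobarbital and a control liver whose dyes were normalized together, and the fit did not take this sharing into account. The dyes gave similar sizes, 1.62 in Cy3 and 1.50 in Cy5. On 4 of these arrays the labels give different mouse numbers in different fields. Of the 12 alternatives, the one with the other numbers included, the call was lost in none (adjusted p of up to 0.00946).

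In the two-colour 1.5X set Cyp2a4 was measured in 1 of the dyes. Probe 1 had 8.13, 8.58 and 8.12 in the phenobarbital mice and 7.93, 7.97 and 7.75 in the control mice, groups that did not overlap (2.14% of all probes tested were higher without overlap), but no mouse had it well above background on all of its arrays in both dyes, and it was not tested. In Cy3, where it was above background on all 8 arrays, the mean was 8.80 in phenobarbital and 7.51 in control livers, a difference of 1.29. In Cy5 it was above background on 1 of 4 phenobarbital and 0 of 4 control arrays, and the mean was 7.76 in phenobarbital and 8.25 in control livers, a difference of -0.50 between signals that were mostly not measured, which carries no direction. With the Cy3 channel alone, the difference of 1.29 passed (limma, adjusted p = 0.00414). The dyes of an array were normalized together, so these Cy3 values are not independent of the weak Cy5 signal.

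**Figure D2:**
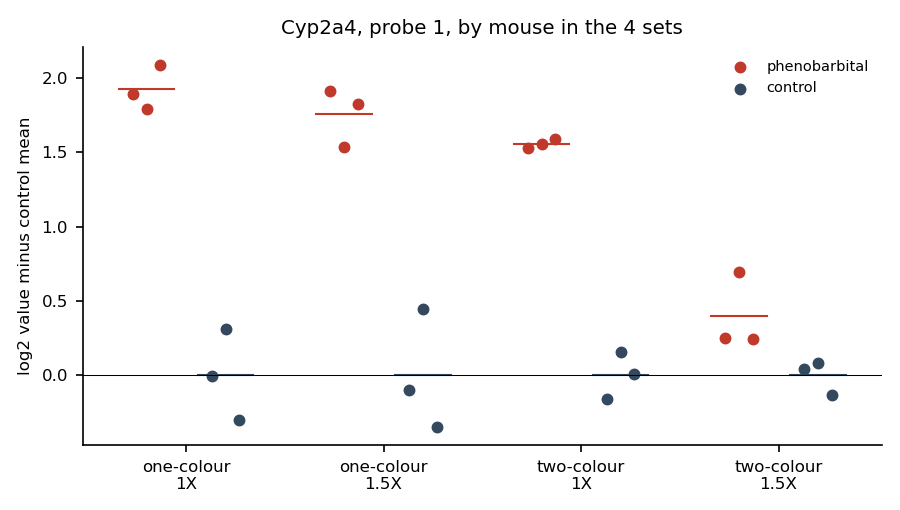
Log2 value of Cyp2a4 probe 1 in each mouse minus the control mean of its set, for the 4 sets, with phenobarbital mice (red) left of control mice (dark) and bars at the means of 3 mice. The mean difference is 1.92, 1.76 and 1.56 in the first 3 sets and 0.40 in the two-colour 1.5X set, whose values average Cy3 with Cy5 signals that were not well above background on 7 of 8 arrays.

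Cyp2a12, a steroid hydroxylase of the same branch, was slightly lower in the phenobarbital livers without passing the test. Over both one-colour inputs it had 3.85, 3.78 and 3.79 in phenobarbital mice 1, 2 and 3, against 4.22, 4.20 and 3.90 in control mice 1, 2 and 3. All phenobarbital mice lay below all control mice, though phenobarbital mouse 1 and control mouse 3 nearly met. The difference was -0.30 (95% confidence interval -0.65 to 0.053, limma adjusted p = 0.446). Groups without overlap and lower with phenobarbital made up 10.2% of all probes in this comparison, so that this separation was a common one. The difference was -0.31 at one-colour 1X, -0.30 at one-colour 1.5X, -0.22 at two-colour 1X and -0.35 at two-colour 1.5X, with the groups overlapping in each of these sets.

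Cyp2a22 was hardly measurable. It was well above background at one-colour 1X in phenobarbital mouse 1 and control mice 1 and 3, and in no mouse of the other sets, and it was not tested. Its log2 values at 1X were -4.56 to -3.77 in phenobarbital and -5.20 to -4.42 in control mice, and the ranges overlapped.

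None of the 4 Cyp2d genes described here passed in any of the 5 comparisons of exposure in which it was tested. Cyp2d22 and Cyp2d26 were not tested in the two-colour 1.5X set. Cyp2d9, a testosterone hydroxylase with male-biased expression in mouse liver, had 2.60, 2.90 and 2.43 in the phenobarbital mice and 2.49, 2.56 and 1.94 in the control mice over both one-colour inputs. Phenobarbital mouse 2 was the highest and control mouse 3 the lowest, and the groups overlapped. The difference was 0.31 (95% confidence interval -0.20 to 0.82, limma adjusted p = 0.589). It was 0.18 at two-colour 1X (interval -0.048 to 0.41) and -0.00060 at two-colour 1.5X (interval -0.53 to 0.53), where Cy3 gave 0.25 and Cy5 -0.25.

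Cyp2d26 had the lowest difference of the 10 probes over both one-colour inputs. Its values were 2.02, 1.58 and 1.63 in the phenobarbital mice and 2.21, 2.19 and 2.00 in the control mice, with phenobarbital mouse 1 just above control mouse 3. The difference was -0.39 (95% confidence interval -0.80 to 0.0065, limma adjusted p = 0.379). At one-colour 1.5X the groups did not overlap (1.42 to 1.79 in phenobarbital and 1.93 to 2.09 in control mice), as for 11.8% of probes in that direction. In the two-colour 1X set it had 9.998, 10.04 and 9.72 in the phenobarbital mice and 10.31, 10.29 and 10.15 in the control mice. These groups did not overlap either, as for 17.2% of probes. The difference of -0.33 there (95% confidence interval -0.56 to -0.097) did not pass over all probes (limma, adjusted p = 0.0976).

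The differences of Cyp2d10 and of Cyp2d22, which is often taken as the nearest mouse counterpart of human CYP2D6, lay close to 0. Over both one-colour inputs Cyp2d10 had 4.95 to 5.18 in phenobarbital and 4.75 to 5.13 in control mice, a difference of 0.10 (95% confidence interval -0.28 to 0.48). Without scaling between arrays this difference was -0.11, where the median over all probes was -0.24 in place of -0.026. In the two-colour 1X set Cyp2d10 had 13.24, 13.21 and 13.23 in the phenobarbital mice and 13.16, 13.02 and 13.02 in the control mice, groups that did not overlap, which 15.4% of all probes tested also showed in that direction. The difference there was 0.16 (limma, adjusted p = 0.224). Cyp2d22 had 1.09 to 1.39 in phenobarbital and 0.94 to 1.48 in control mice over both one-colour inputs, the phenobarbital range inside the control range. Its difference was 0.050 (95% confidence interval -0.38 to 0.48) and fell on either side of 0 with the setting. The Cyp2d genes form a cluster of close copies, and how far each probe also binds RNA of its neighbours was not tested.

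Cyp2f2, which oxidizes naphthalene and is known from airway club cells and periportal hepatocytes, had 1.96, 2.17 and 1.76 in the phenobarbital mice and 2.17, 2.05 and 1.91 in the control mice over both one-colour inputs. The groups overlapped almost fully, and the difference was -0.079 (95% confidence interval -0.46 to 0.31, limma adjusted p = 0.874). In linear terms the interval runs from a 0.725-fold to a 1.24-fold level. None of the 4 airway and lung markers with a probe (Scgb1a1, Sftpb, Sftpc and Sftpa1) was well above background on any one-colour array. Cyp2j5, an arachidonic acid epoxygenase of liver and kidney, had -1.60, -1.27 and -2.05 in the phenobarbital mice and -1.45, -1.18 and -1.75 in the control mice. Mouse 3 was the lowest of its group in both, the groups overlapped, and the difference was -0.18 (95% confidence interval -0.74 to 0.39, limma adjusted p = 0.794). Of 5 kidney markers, Nphs1 was well above background on all one-colour arrays, and Kap, Slc34a1, Umod and Slc12a1 on none.

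Counted together, 8 of the 10 probes could be tested over both one-colour inputs, and 1 of them, Cyp2a4 probe 1, passed an adjusted p of 0.05 (limma), as a higher one. The share called among all 16296 probes tested was 0.730%, with 0.626% higher and 0.104% lower. The 8 differences had a median of -0.015, beside -0.026 for all probes, with 4 above and 4 below 0. At one-colour 1X, 1 of 9 tested probes passed (0.138% of all 24613), at one-colour 1.5X 0 of 8 (0.263% of all 16758) and at two-colour 1X 1 of 8 (6.39% of all 10043). In the two-colour 1.5X set 4 probes were tested and 0 passed, as for 0% of all 1823. At an unadjusted p under 0.05 the counts of these probes were 1, 2, 1, 2 and 0 in the same order, against 13.5%, 8.76%, 14.7%, 24.5% and 1.92% of all probes. Of the tested probes, Cyp2j5 at two-colour 1X was measured in full in the control group only, and Cyp2f2 at two-colour 1.5X in the phenobarbital group only.

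**Figure D3:**
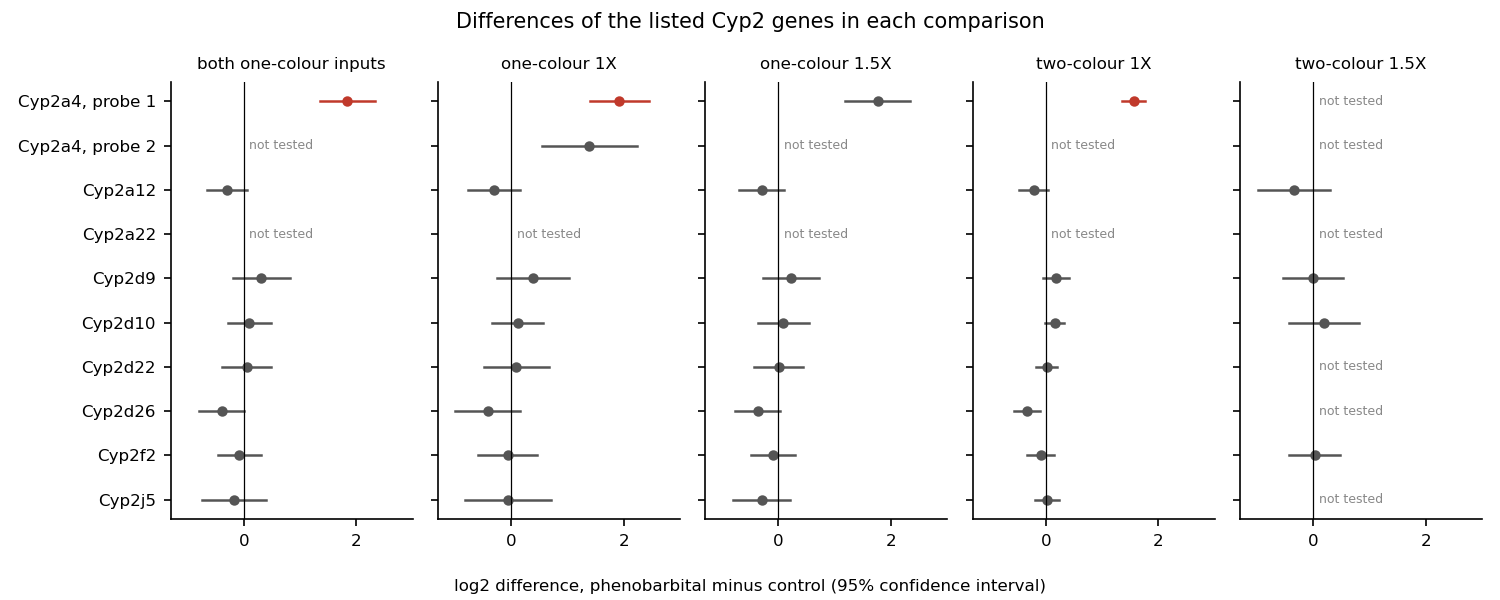
Log2 difference, phenobarbital minus control, of the 10 probes in the 5 comparisons of exposure, with 95% confidence intervals from limma. Red marks an adjusted p under 0.05, and probes without a value were not tested. Only Cyp2a4 probe 1 is marked red, with 1.84 over both one-colour inputs, 1.92 at one-colour 1X and 1.56 at two-colour 1X, and apart from it and Cyp2a4 probe 2, all intervals but that of Cyp2d26 at two-colour 1X (-0.56 to -0.097) include 0.

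Whether the effect of phenobarbital differed between inputs or formats was tested on differences within mice. For Cyp2a4 probe 1, the effect at 1.5X minus that at 1X was -0.16 (95% confidence interval -0.61 to 0.28, limma adjusted p = 0.959). The effect in the two-colour minus that in the one-colour format at 1X was -0.37 (interval -0.80 to 0.070, limma adjusted p = 0.998). None of the 8 probes tested passed either test, where 0% and 0.0199% of all probes did. At an unadjusted p under 0.05 the count was also 0 of 8 in each, against 5.69% and 4.76% of all probes. The other 7 probes differed by -0.25 to 0.046 between inputs and by -0.22 to 0.088 between formats.

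**Figure D4:**
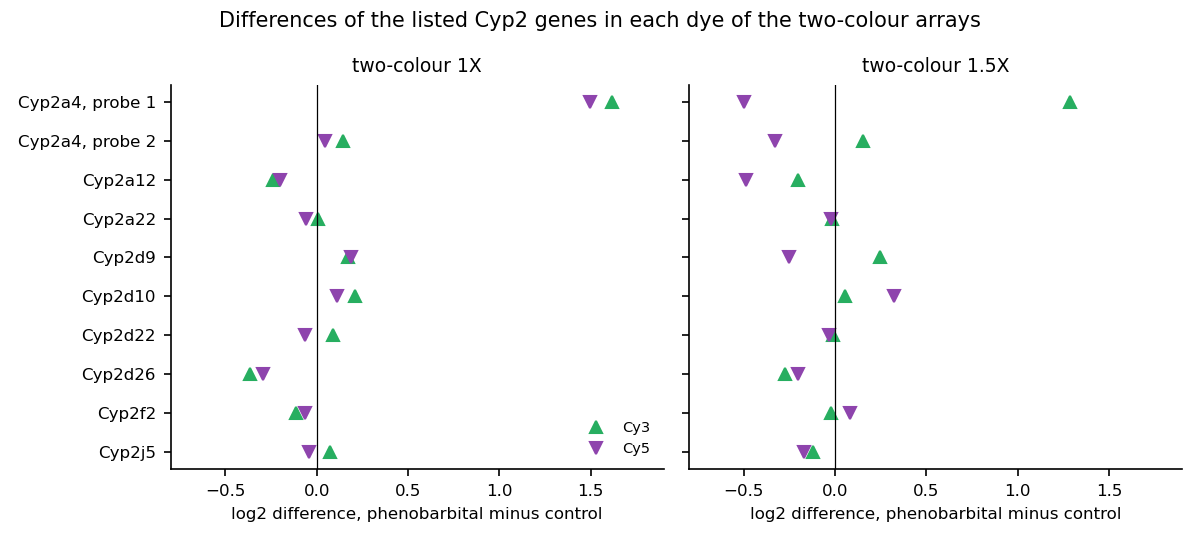
Log2 difference, phenobarbital minus control, of the 10 probes in each dye of the two-colour arrays (upward triangles Cy3, downward triangles Cy5), at 1X on the left and 1.5X on the right. For Cyp2a4 probe 1 the dyes lie at 1.62 and 1.50 at 1X, and at 1.29 and -0.50 at 1.5X, where Cy5 was well above background on 1 of 4 phenobarbital and 0 of 4 control arrays.

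The other genes of the Cyp2 family give the setting of these values. Of 40 such genes, 36 had a probe and 27 were tested over both one-colour inputs. Of these, 7 rose and 0 fell (limma, adjusted p under 0.05), and their median difference was 0.39, beside -0.026 over all probes, of which 0.626% rose and 0.104% fell. Cyp2b10 and Cyp2c39, both among the 7, and Cyp2c65, which did not pass, were tested only because phenobarbital livers had them above background, so the count and the median partly follow from the filter. The 7 were led by Cyp2b10, the classical CAR target (6.21, adjusted p = 0.000139), and by Cyp2c55 (3.73, adjusted p = 0.00130), Cyp2c54 (2.41, adjusted p = 0.00696) and Cyp2c50 (1.83, adjusted p = 0.00696), drug- and fatty acid-oxidizing enzymes of the 2c branch. Cyp2b10 was not well above background in control livers, and its fold is a bound: at least 23.6-fold higher with phenobarbital. By branch, over both one-colour inputs, 6 of 13 Cyp2c genes, 1 of 2 Cyp2b genes and 1 of 2 Cyp2a genes rose, and 0 of 9 Cyp2d genes and 0 of 4 Cyp2j genes passed in either direction. The median was 1.58 for the Cyp2c, 0.050 for the Cyp2d and -0.26 for the Cyp2j genes, and the Cyp2d genes ranged from -0.61 (Cyp2d40) to 0.39 (Cyp2d11). In the two-colour 1X set, where 6.39% of all probes passed, 9 of 22 other Cyp2 genes rose and 2 fell. Of the 9, Cyp2b10 (1.72, limma adjusted p = 0.00674) was tested only because phenobarbital livers had it above background. This count therefore partly follows from the filter as well. Cyp2d11 was among those that rose (0.58, limma adjusted p = 0.00308), and Cyp2c67 (-0.51, limma adjusted p = 0.00736) and Cyp2u1 (-0.59, limma adjusted p = 0.00579) fell. Por, the reductase that serves all of these enzymes, rose by 2.39 over both one-colour inputs (limma, adjusted p = 0.00219), and 0 of the other 4 electron transfer genes tested passed there. At two-colour 1X, 2 of 4 such genes rose, Por (1.74, limma adjusted p = 5.82e-05) and Cyb5a, an electron donor to P450s (0.72, limma adjusted p = 0.00695).

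**Figure D5:**
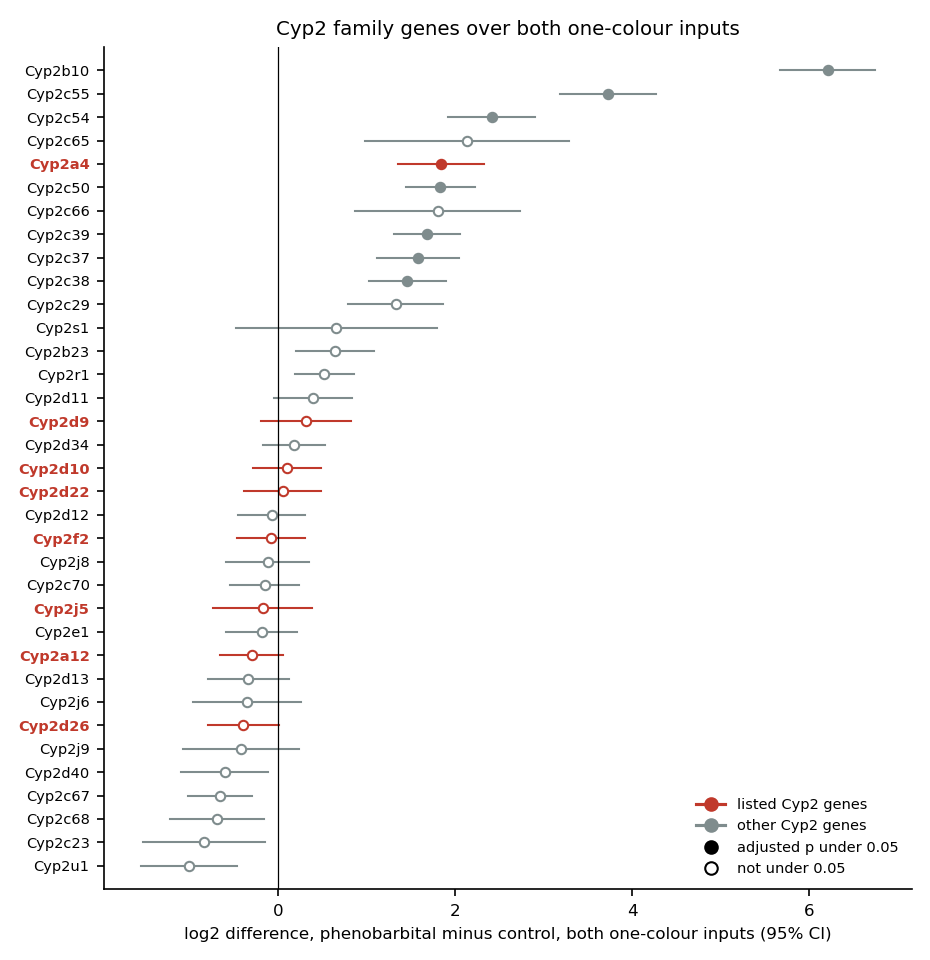
Log2 difference, phenobarbital minus control, over both one-colour inputs for each Cyp2 gene tested, 1 probe per gene, with 95% confidence intervals. Red names and points are the genes described, grey the others, and filled points have an adjusted p under 0.05. Cyp2a4 (1.84) lies among the Cyp2c genes that rose, and Cyp2d9, Cyp2d10, Cyp2d22, Cyp2d26, Cyp2f2, Cyp2j5 and Cyp2a12 lie between -0.39 and 0.31.

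Gene groups that share a known property with these enzymes were compared by counts over both one-colour inputs. Of 7 further female-biased liver genes tested, 2 rose and 0 fell: Cyp3a44 (3.86, at least 3.48-fold, limma adjusted p = 0.00130) and Cyp3a16 (1.26, limma adjusted p = 0.0359), both P450s. Both entered the test only through the phenobarbital livers, so the whole count of 2 rests on genes that the filter let in there. The median of the 7 was 1.01 with these 2 included, and partly follows from the filter too. Of 15 male-biased genes, 0 passed, with a median of -0.17 and the largest differences at Cyp2u1 (-1.01, limma adjusted p = 0.120) and Mup21 (-0.91, limma adjusted p = 0.0639). In the two-colour 1X set, where 6.39% of all probes passed, 5 of 13 male-biased genes fell, among them Hsd3b5 (-0.71, limma adjusted p = 0.00864) and Mup21 (-0.71, limma adjusted p = 0.00411), and Mup20 rose (0.69, limma adjusted p = 0.0219), while 0 of 3 female-biased genes passed. Over both one-colour inputs, of 13 pericentral and 15 periportal hepatocyte genes 0 passed, with medians of -0.19 and -0.12. Aldh1a1, the pericentral gene with the largest difference, had 1.12 (limma, adjusted p = 0.0502), and Pck1, the periportal one, -0.58. Of 11 receptors and liver factors 0 passed, with a median of -0.21, Ahr at 1.03 and Ppargc1a at -0.75. At two-colour 1X, 4 of 10 receptors and factors passed. Nr1i2, the pregnane X receptor (0.67, limma adjusted p = 0.00822), and Ahr (0.53, limma adjusted p = 0.0360) rose, and Ppargc1a (-0.46, limma adjusted p = 0.0460) and Stat5b (-0.32, limma adjusted p = 0.0494) fell. Ahr was tested through the phenobarbital and Ppargc1a through the control livers only. Of 12 pericentral genes there, Aldh1a1 (1.05, limma adjusted p = 0.000663) and Cyp1a2 (0.59, limma adjusted p = 0.00655) rose and Oat (-0.37, limma adjusted p = 0.0497) fell, and 0 of 14 periportal genes passed. The medians over both inputs stand beside -0.026 over all probes.

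Over both one-colour inputs 0 markers of hepatocytes or other cells passed. The hepatocyte markers (10 tested) had a median of -0.10 and the pancreas markers (10 tested) -0.95, with Ins2 at -1.60 (limma, adjusted p = 0.507). Medians were 0.35 for 2 cholangiocyte genes, 0.17 for 4 of Kupffer cells and macrophages, -0.13 for 4 of endothelium, 0.15 for 4 of stellate cells and fibroblasts and 0.22 for 4 of red cells. Single genes were tested for neutrophils (S100a9, 2.08, limma adjusted p = 0.229), lymphocytes (Nkg7, 0.20), adipose tissue (Retn, 0.12) and kidney (Nphs1, 0.0075). S100a9 entered the test only through the phenobarbital livers. At two-colour 1X, where 312 of all 10043 probes fell, 2 of 10 hepatocyte markers fell and 0 of the other markers tested passed. The 2 were Ttr (-0.62, limma adjusted p = 0.00780) and Alb (-0.39, limma adjusted p = 0.0192). The median of the 10 was -0.069, beside -0.012 over all probes. Without overlap, 2 of the 10 were higher and 4 lower with phenobarbital, against 15.4% and 17.2% of all probes. The summed neutrophil markers did not overlap between groups, at 0.238 to 0.761 in phenobarbital and 0.130 to 0.202 in control livers at 1X. At 1.5X they were 0.114 to 0.669 in phenobarbital and 0.0557 to 0.105 in control livers. The median phenobarbital sum was 0.270 at 1X and 0.125 at 1.5X, so 1 mouse made the upper end. The summed lymphocyte markers were without overlap at 1.5X only (0.210 to 0.237 in phenobarbital and 0.133 to 0.186 in control livers). Of the 5 neutrophil genes 0 were above background on all 6 arrays of either set, and S100a8 was above it on none. The part of these lists in the Cyp2a4 result was not tested.

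Across the 12 one-colour arrays of the 6 mice, after subtracting the mean of each set, the genes outside the list whose pattern was most like that of Cyp2a4 were Gstm2 (Pearson r = 0.995), Cyp2c54 (0.984) and Cyp2c50 (0.976), among 7275 genes. The difference between the exposure groups was not removed, so r includes it for every pair named here. That all 3 rose over both inputs (1.16, 2.41 and 1.83) therefore follows in part from how they were picked. For Cyp2d9 the most alike were Hamp (0.922), Mtmr1 (0.908) and Rnf40 (0.904), and for Cyp2f2 Apob (0.934), Asgr2 (0.926) and Stard10 (0.919). None of these genes passed the test of exposure. Among the listed genes themselves the highest values were 0.873 for Cyp2d26 with Cyp2a12 and 0.857 for Cyp2f2 with Cyp2j5, and the lowest was -0.660 for Cyp2a4 with Cyp2a12. Each mouse counts for 2 of these arrays, and arrays of a set share the slide, so the values describe these 12 arrays.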

How the data were processed

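Total RNA of 3 phenobarbital and 3 control mice was measured on 28 Agilent arrays in 4 sets. Per the file headers, images were extracted with Agilent Feature Extraction 11.0.1.1, and the deposited intensity of a spot is background-subtracted and not scaled between arrays. The deposited log10 ratio of a two-colour array was dye-normalized by that software and was not used for the tests. Flags of 0 or 1 per spot (other values), as deposited, mark signals well above background, outliers and saturation. For one-colour arrays, the log2 processed signal was set against the 75th percentile of the probes that were well above background throughout the set. Two-colour channels were corrected with normexp (offset 50), loess (span 0.3) and Aquantile, and averaged per mouse within and then over dyes. Testing took every probe that 1 group or both had well above background without exception, with limma 3.58.1 (R 4.3.3) and Benjamini-Hochberg adjustment over all probes tested, threshold 0.05. The fits were tested on simulated data with 200 changed probes. Of 2-fold changes they found 30.5% over both one-colour inputs, 0% at one-colour 1X or 1.5X and 95% at two-colour 1X. Of 4-fold changes they found 83.5%, 70.5%, 76.5% and 97% in the same order. The test of the input difference found 0% of 2-fold and 81% of 4-fold changes. A change that did not pass can therefore still be present, above all in the one-colour sets.

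Of 62976 spots, 3671 control spots were left out, which left 55681 distinct probes. Accessions were matched to the RefSeq table (GRCm38.p6), which named 27235 probes and 20660 symbols. The files name another build, so coordinates are given only for the upstream sequences, in the build of their table. Every probe of the 10 genes is described. In each other list, up to 4 genes past the threshold with the largest change are named, or else up to 2, and values of others are given where a list had 1 tested gene. For lists and likeness, the brightest probe of a gene was used. The genes and lists were chosen with earlier results of these data known. On 2 two-colour 1X arrays the labels oppose each other on the dyes, and these arrays entered no comparison. The alternatives left out each mouse or the filter on dim probes, and changed the background correction, scaling, dye, mouse labels, probes per gene or block.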

Additional observations from a re-analysis of the deposited data

How the results depend on the processing

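Of 439 settings of single probes, 385 kept the direction and the side of the threshold, 14 lost the call, 3 gained it and 37 turned the direction. No turned value passed the test. The cause of the changes was not tested. For Cyp2a4 probe 1 the direction held in every alternative run where it was tested. Its difference was 1.63 to 2.03 over both one-colour inputs (adjusted p 0.00473 to 0.0862), 1.63 to 2.08 at one-colour 1X (0.00779 to 0.180), 1.59 to 1.98 at one-colour 1.5X (0.0120 to 0.276) and 1.48 to 1.91 at two-colour 1X, by limma. The test of the input difference gave -0.26 to -0.10, and that of the format difference -0.44 to -0.21.

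Over both one-colour inputs 119 probes passed, 1 of them of the described genes. The counts were 28 and 0 without a filter, 57 and 0 with the mouse number as replicate block, and 221 with normexp and quantile normalization. They were 21 to 156 and 0 to 1 when a mouse was left out. At one-colour 1X (34 and 1) they were 5 and 0 without a filter, 3 and 0 with the replicate block, 56 with normexp and quantile, 0 described probes unscaled, and 6 to 22 and 0 without a mouse. At one-colour 1.5X (44 and 0) they were 8 without a filter, 3 with the replicate block, 187 and 1 with normexp and quantile, 1 described probe with the percentile over all probes, and 8 to 150 without a mouse. At two-colour 1X (642 and 1) they were 996 and 2 with the replicate block, where Cyp2d26 was added, 181 in Cy3 alone, 121 with mice from the source names, and 264 to 762 without a mouse. At two-colour 1.5X (0 and 0) Cy3 alone gave 22 and 1. The format difference (2) gave 1 without a filter and 0 to 2 without a mouse. The mouse numbers do not pair the animals: deviations of same-numbered mice correlated at 0.049, -0.10 and 0.25. With the replicate block, Cyp2a4 probe 1 had an adjusted p of 0.0590 over both one-colour inputs.

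Values that turned sign were these. Unscaled values moved the median of all probes to -0.24 over both inputs, -0.29 at 1X and -0.17 at 1.5X, and gave Cyp2d22 -0.17, -0.20 and -0.13 and Cyp2d10 -0.11, -0.18 and -0.050. Normexp and quantile gave Cyp2d22 -0.0093 over both inputs and -0.031 at 1.5X. Leaving out a mouse, over both inputs, gave -0.093 to 0.18 for Cyp2d22, -0.017 to 0.17 for Cyp2d10, -0.18 to 0.021 for Cyp2f2 and -0.36 to 0.028 for Cyp2j5. At 1X it gave -0.12 to 0.25 for Cyp2d22, -0.21 to 0.080 for Cyp2f2 and -0.34 to 0.20 for Cyp2j5, and at 1.5X -0.10 to 0.10 for Cyp2d22 and -0.036 to 0.20 for Cyp2d10. At two-colour 1X it gave -0.049 to 0.10 for Cyp2j5 and -0.038 to 0.071 for Cyp2d22, and processed signals gave Cyp2j5 -0.12. At two-colour 1.5X it gave -0.076 to 0.16 for Cyp2f2, -0.064 to 0.35 for Cyp2d10 and -0.16 to 0.11 for Cyp2d9. There, Cy3 alone gave -0.024 for Cyp2f2 and 0.25 for Cyp2d9, and processed signals 0.0053 for Cyp2d9. Weak signal limits the two-colour 1.5X set, where 4.71% of probes were well above background in Cy5.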

Other observations

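On 2 arrays of the two-colour 1X set, arrays 4 and 8, the labels disagree on which dye held the phenobarbital liver, so that only the size of the ratio between the dyes can be given. For Cyp2a4 probe 1 the size of the log2 ratio was 1.58 on array 4 and 2.57 on array 8, with both dyes well above background. For Cyp2d9 it was 0.069 and 0.58, for Cyp2d22 0.014 and 0.42, and for Cyp2d26 0.40 and 0.024 on arrays 4 and 8. Cyp2a12 had 0.33 and 0.12, Cyp2d10 0.019 and 0.19, and Cyp2f2 0.051 and 0.048.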
